A study of Mus musculus with 2 samples.

Results

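Mir103-1, Mir103-2 and Mir107 are the 3 mouse microRNA genes that lie inside the pantothenate kinase genes, and they were chosen by their symbols from the 2202 microRNA genes of the count tables. All 3 were found. Small RNA was sequenced from gastrocnemius tissue, a calf muscle of mostly fast fibres, taken from females 36 days old. The strain was B6CASTF1/J, a hybrid of a C57BL/6 and a CAST/EiJ parent, with no treatment named, and the 2 libraries form 1 group, so no conditions could be compared. The labels number the libraries as biological replicates 1 and 2 and name 2 separate females, but both carry the same donor identifier. If that identifier stands for 1 mouse, the spread between the replicates holds no difference between animals.

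The microRNAs miR-103 and miR-107 form a small family that is conserved among vertebrates and made in many tissues. Each is cut from an intron of a gene for pantothenate kinase, the enzyme that starts the synthesis of coenzyme A from vitamin B5. They are best known as regulators of insulin sensitivity, acting in liver and fat on caveolin-1, and they bind targets chiefly through the seed, bases 2 to 8 of the mature strand. A hairpin has a 5p and a 3p arm, and the 3p arm is the one usually kept in this family.

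In the GENCODE M21 annotation of the mm10 build each gene lay on the strand of its host and in intron 5 of a host transcript of 7 exons. The distances below are for such transcripts. Some other transcripts of Pank2 and Pank1 had the gene in an intron of another number or did not span it. Over the Pank2 transcripts that span it, the intron measured 984 to 19135 bases. Mir103-1 (ENSMUSG00000065553.1), 86 bases long, was at chromosome 11, 35782396 to 35782481, in Pank3, 688 bases after the upstream exon of an intron of 1740 bases. Mir103-2 (ENSMUSG00000065563.1), also 86 bases, was at chromosome 2, 131288052 to 131288137, in Pank2, 454 bases after the upstream exon of an intron of 5801 bases. Mir107 (ENSMUSG00000065594.1), 87 bases, was at chromosome 19, 34820687 to 34820773 on the minus strand, in Pank1, 326 bases after the upstream exon of an intron of 7282 bases. The small RNA libraries hold no measure of the host messenger RNAs.

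All 3 genes matched RefSeq entries (GRCm38.p6), whose sequences are printed here. The hairpins are shown because their shared stretches decide which reads could be counted for each gene, with the 2 mature arms in capitals.
Mir103-1: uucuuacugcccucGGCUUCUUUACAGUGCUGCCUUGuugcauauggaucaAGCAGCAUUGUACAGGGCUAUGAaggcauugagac
Mir103-2: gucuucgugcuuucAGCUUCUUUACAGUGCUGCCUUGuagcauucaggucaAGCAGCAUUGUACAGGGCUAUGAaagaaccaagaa
Mir107: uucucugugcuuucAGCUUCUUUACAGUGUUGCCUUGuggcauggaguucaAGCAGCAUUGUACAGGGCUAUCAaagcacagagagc

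The mature arms follow with the seed in capitals, since the seed groups them by arm.
mmu-miR-103-3p: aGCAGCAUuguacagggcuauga
mmu-miR-107-3p: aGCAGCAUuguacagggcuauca
mmu-miR-103-1-5p: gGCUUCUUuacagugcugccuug
mmu-miR-103-2-5p: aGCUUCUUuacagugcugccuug
mmu-miR-107-5p: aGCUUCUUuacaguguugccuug

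The mature 3p arm was identical at Mir103-1 and Mir103-2. It differed from that of Mir107 by 1 of 23 bases, G22C, counted from the 5′ end of miR-103-3p, so the first 21 bases are common to all 3 genes. The seed GCAGCAU belonged to these 2 sequences alone among the 1674 different mouse mature sequences of the RefSeq table. The 5p arms shared the seed GCUUCUU and no other sequence of the table had it. They differed by G1A between Mir103-1 and Mir103-2 and by C16U between Mir103-2 and Mir107. Over the whole hairpin Mir103-2 and Mir107 were 83.9% identical, Mir103-1 and Mir107 80.5%, and Mir103-1 and Mir103-2 80.2%. The 2 genes that give the same mature 3p strand were thus not the pair with the most similar hairpins.

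Reads that match several places stand in a summary row of the tables and belong to no gene, which bears on this family directly. Every stretch of the 3 hairpins was therefore looked up, on both strands, in the 141767 M21 transcripts and 1005 RefSeq hairpins. The rest of the genome was not searched, so a stretch found at 1 gene here may match elsewhere, above all a short one. Of the 21 windows of 18 to 23 bases that fit inside the mature 3p arm, 0 were found at Mir103-1 alone and 0 at Mir103-2 alone, while 11 were found at Mir107 alone. A read starting at the first base of the 3p arm had to be at least 22 bases long to belong to Mir107 alone. For Mir103-1 or Mir103-2 it had to be 25 bases long and so reach past the 23-base mature strand. In the 5p arm 6 of 21 windows were found at Mir103-1 alone, 6 at Mir103-2 alone and all 21 at Mir107 alone. A 5p read starting at base 1 was found at 1 gene from 16 bases on for each of the 3 genes. The counts of both Mir103 genes can thus hold no exact read of the reference miR-103-3p. Of reads that lie within the mature 3p arm, the count of Mir107 can hold only those that include base 22. Both the counts and this search rest on the reference sequence, and reads of CAST/EiJ alleles that differ from it were not examined. The counts do not compare the amounts of the mature microRNAs, since the 3 genes differ in which reads could be assigned.

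**Figure D1:**
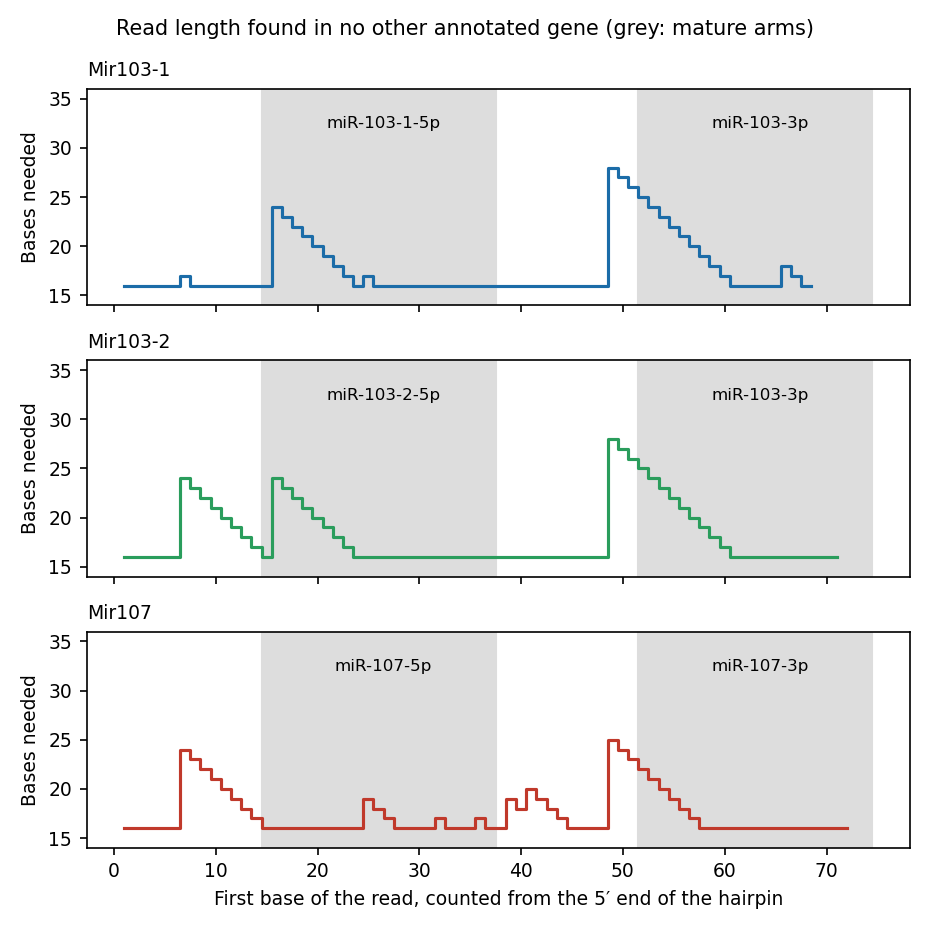
For each start position along the hairpin (horizontal axis, in bases), the line gives the shortest read, in bases and searched from 16 up, that was found in no other annotated gene; grey bands are the mature arms. Reads starting at the first base of the 3p arm needed 25 bases at both Mir103 genes and 22 at Mir107.

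Gene-assigned reads numbered 1593787 in replicate 1 and 2078101 in replicate 2, and reads matching several places made up 75.4% and 77.6% of all reads. Of the 2202 genes, 273 were detected, meaning at least 10 reads in both libraries. The 9 skeletal muscle markers all had reads and held 2.21% and 6.98% of gene-assigned reads, while the 6 neural markers had 0 and 1 read. Mir206 alone had 32871 and 139295 of the 35211 and 145090 reads of the muscle markers. Such sums leave out reads matching several places, so they do not give the share of a marker list in the tissue. The heart marker Mir208a had 1 and 15 reads and the liver marker Mir122 had 321 and 347.

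Mir107 was the one member with a substantial count. It had 642 reads in replicate 1 and 1237 in replicate 2, which are 403 and 595 reads per 1000000 gene-assigned reads (CPM), with exact 95% counting intervals of 372 to 435 and 563 to 629. The intervals did not overlap, and the mean was 499 ± 136 CPM (SD, n = 2). Among the 273 detected genes Mir107 ranked 91 in replicate 1 and 79 in replicate 2, in the upper part of the list but far from the leading genes.

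Mir103-2 had 23 and 18 reads, or 14.4 and 8.66 CPM, with intervals of 9.15 to 21.7 and 5.13 to 13.7 that overlapped. It ranked 248 and 266 of the 273 detected genes. Mir103-1 had 3 and 4 reads, or 1.88 and 1.92 CPM, with intervals of 0.388 to 5.50 and 0.524 to 4.93, and was under the minimum for detection. In replicate 1 its count equals the 3 counts that a count of 0 allows. So 2 of the 3 members passed the filter on low counts. In both libraries the order was Mir107, Mir103-2, Mir103-1, and the intervals of neighbours in that order did not overlap in either library.

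**Figure D2:**
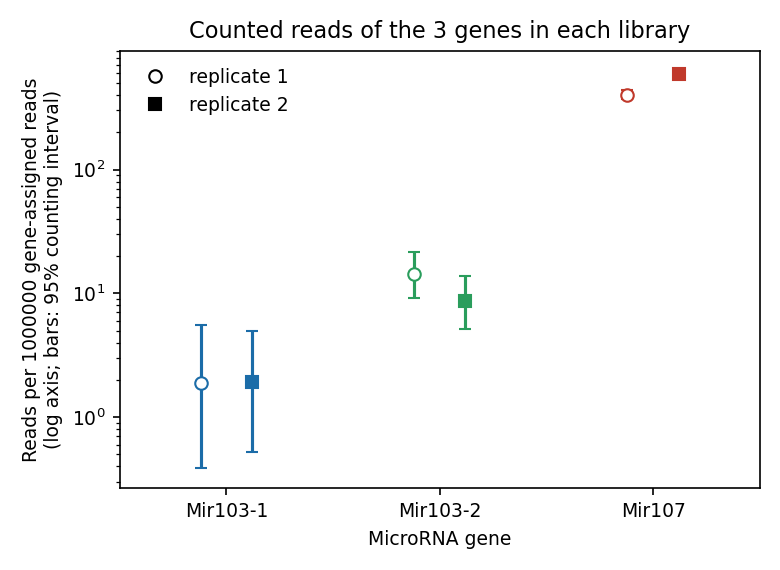
Reads per 1000000 gene-assigned reads (log axis) of the 3 genes in replicate 1 (open circles) and replicate 2 (filled squares), with exact 95% counting intervals as bars. Mir107 lay at 403 and 595, Mir103-2 at 14.4 and 8.66 and Mir103-1 at 1.88 and 1.92.

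Together the 3 genes held 668 reads in replicate 1 and 1259 in replicate 2, 0.0512% ± 0.0132 of gene-assigned reads. Mir107 made up 96.1% of them in replicate 1 (exact 95% interval 94.3 to 97.4) and 98.3% in replicate 2 (97.4 to 98.9). Mir103-2 made up 3.44% (2.19 to 5.12) and 1.43% (0.849 to 2.25), and Mir103-1 0.449% (0.0927 to 1.31) and 0.318% (0.0866 to 0.811). All counts lay on the strand of the genes, with 0 reads on the opposite strand in either library, and the same reads were counted when strand was disregarded.

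Mir107 was 1.55-fold higher in replicate 2 after TMM scaling (95% counting interval 1.41 to 1.71), and it passed the exact binomial test (adjusted p = 2.4e-19). That test compares 2 libraries and takes no account of spread between animals, and it called 63.0% of the 273 detected genes, 33.3% as higher in replicate 2. Its log2 ratio of 0.63 was exceeded by 39 of the 273. With scaling by all reads of the tables, 58 genes were called higher and 119 lower, in place of 91 and 81, and Mir107 was 1.31-fold higher. In edgeR's exact test, run at the spread estimated from these same libraries, 1.47% of genes were called and Mir107 did not pass (adjusted p = 1). Mir103-2 had a fold of 0.629 (0.320 to 1.22) and did not pass the binomial test (adjusted p = 0.22). Mir103-1 was not tested, and its fold of 1.07 had an interval of 0.181 to 7.31.

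The split of reads among the members does not depend on how libraries are scaled. Against the other 2 members, the share of Mir103-2 was lower and that of Mir107 higher in replicate 2 (Fisher's exact test, two-sided, adjusted p = 0.0081 for both over 3 members), while that of Mir103-1 did not pass (adjusted p = 0.70). With only 3 and 4 reads at Mir103-1, the tests of Mir103-2 and Mir107 are nearly the same test and not separate results. Mir107 had 27.9 reads for each read of Mir103-2 in replicate 1 (18.4 to 44.4) and 68.7 in replicate 2 (43.3 to 116), so these intervals touched. The difference rests on the 23 and 18 reads of Mir103-2, and like the binomial test it compares libraries only.

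Other markers also differed between the libraries. Of the 7 detected muscle markers 4 were called higher in replicate 2 and none lower by the binomial test, beside 33.3% and 29.7% of all genes, with Mir206 at 32871 and 139295 reads. The other 3 were not called, with folds of 0.603 to 1.05. The median log2 ratio of the detected muscle markers was 0.19, against 0.02 over all detected genes. The largest differences of the list, named after their values were seen, were at genes in introns of slow-fibre myosin genes. Mir208b had 5 and 889 reads, and Mir499 had 86 and 1527. In edgeR's exact test Mir499 passed (adjusted p = 3.1e-04) and Mir206 did not (adjusted p = 0.36). The endothelial gene Mir126a held 8.82% and 11.3% of reads. The 2 smooth muscle markers held 12.03% and 6.25%, the 2 erythroid markers 3.73% and 0.898%, and the 4 leukocyte markers 0.142% and 0.209%. Of the leukocyte markers 2 were called higher, among them Mir155 with 928 and 2820 reads, and 2 lower, with a median log2 ratio of -0.14. The part of these in the difference of Mir107 was not tested. In whole tissue, fewer cells of a type and less RNA per cell cannot be told apart.

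The miR-15/16 microRNAs, which hold back the cell cycle, are the nearest relatives by sequence. They carry the AGCAGC stretch from base 2 on, so that their seed is displaced by 1 base from that of miR-103 and miR-107, where the stretch starts at base 1. The lines below set 4 of them beside miR-107-3p, seed in capitals.
mmu-miR-107-3p: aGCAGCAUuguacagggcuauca
mmu-miR-15a-5p: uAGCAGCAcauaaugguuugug
mmu-miR-16-5p: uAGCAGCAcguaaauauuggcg
mmu-miR-195a-5p: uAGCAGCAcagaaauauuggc
mmu-miR-322-5p: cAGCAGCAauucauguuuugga

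AGCAGC was searched in the first 10 bases and was present in 16 of the 1674 mature sequences (0.956%). Of the 10 listed relatives of the family, all were in the tables and 8 were detected. Mir497b, which lies opposite Mir497 and lacks AGCAGC, and Mir195b had 0 reads. The list held 1.74% of gene-assigned reads in replicate 1 and 1.69% in replicate 2, most of them from Mir322 with 17099 and 22115 reads. Mir107 stood below Mir195a (1948 ± 431 CPM), Mir15a (1545 ± 433), Mir16-1 (1517 ± 323) and Mir497 (798 ± 122). It stood above Mir15b (368 ± 98.3), Mir16-2 (226 ± 34.0) and Mir503 (69.7 ± 2.78). The ranges of Mir107 and Mir15b over the 2 libraries overlapped, so their order was not settled.

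Among these 8 relatives, 3 were called higher and 4 lower in replicate 2 by the binomial test, beside 33.3% called higher and 29.7% lower among all genes. Their median log2 ratio was -0.09, against 0.02 over all detected genes. Mir195a was 1.44-fold higher (1.37 to 1.51), Mir497 1.30-fold (1.21 to 1.40) and Mir322 1.04-fold (1.02 to 1.06). The direction of Mir322 turned with the scaling, to folds of 0.992 by gene-assigned reads (adjusted p = 0.53, binomial test) and 0.877 by all reads of the tables (adjusted p = 3.4e-37). Mir15a had a fold of 0.701 (0.665 to 0.740), Mir15b 0.715 (0.640 to 0.797), Mir16-1 0.773 (0.733 to 0.816) and Mir16-2 0.846 (0.736 to 0.973), all called lower. Mir15a and Mir16-1 are neighbours, as are Mir15b and Mir16-2, and Mir195a and Mir497, and both genes of each of these pairs were called in the same direction. Mir503, the neighbour of Mir322 on chromosome X, did not pass, with a fold of 1.11 (0.859 to 1.43). Mir107 had a ratio above each of the 8, and edgeR's exact test gave an adjusted p of 1 for each.

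**Figure D3:**
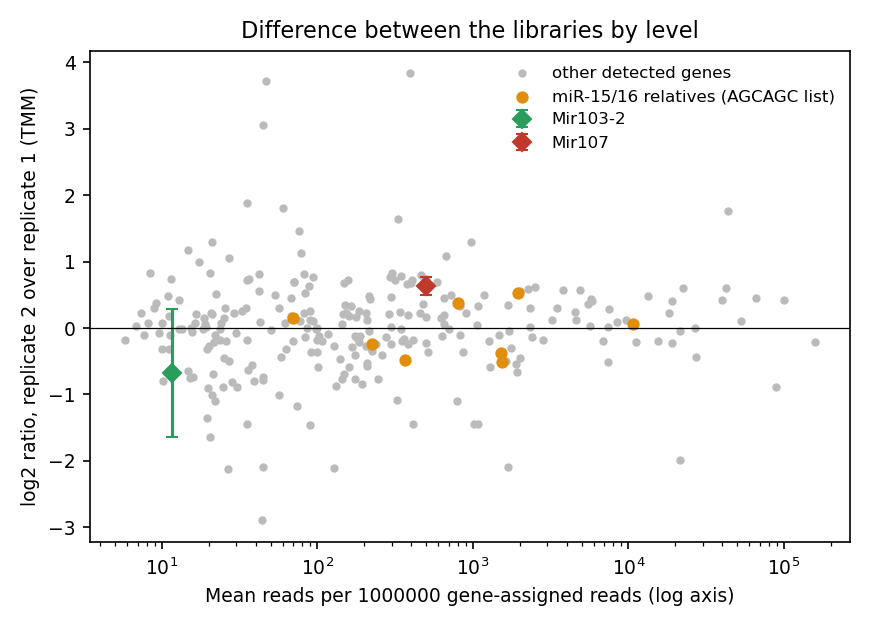
The log2 ratio of replicate 2 over replicate 1 after TMM scaling against the mean level (reads per 1000000 gene-assigned reads, log axis) for the 273 detected genes in grey, with the 8 detected relatives in orange and Mir103-2 and Mir107 as diamonds with 95% counting intervals. Mir107 lay at 0.63 and Mir103-2 at -0.67, the latter with an interval that crosses 0.

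The pattern of a low count at genes with the same mature strand and a higher count at the relative with its own was also seen in the miR-26 family, which lies in introns of the Ctdsp phosphatase genes. Mir26a-1 and Mir26a-2, whose 5p strand is identical, had 4 and 16 reads and 50 and 59 reads, whereas Mir26b had 27600 and 40070. It was likewise seen for Mir29b-1 (17 and 24 reads) and Mir29b-2 (20 and 20) beside Mir29a (3792 and 2994) and Mir29c (2544 and 1162). It was not general. Mir16-1, with the same 5p strand as Mir16-2, had 2783 and 2678 reads, close to the 2950 and 2575 of Mir15a, and Mir128-1 had 558 and 1202 reads although it shares a strand with Mir128-2 (67 and 229). Mir218-1 and Mir218-2 had 2 to 9 reads each.

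Over the 1018 genes of the tables with a RefSeq mature sequence, 94 had an arm identical to that of another gene, and 34 of them (36.2%) were detected, with a median of 95.9 CPM (quartiles 22.0 and 222). Of 924 genes with arms of their own, 212 (22.9%) were detected, with a median of 183 CPM (42.1 and 1034). Mir107 with 499 CPM lay above the median of its class, and Mir103-2 with 11.5 CPM below the lower quartile of its class. These are descriptions of the counted reads and were not tested.

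**Figure D4:**
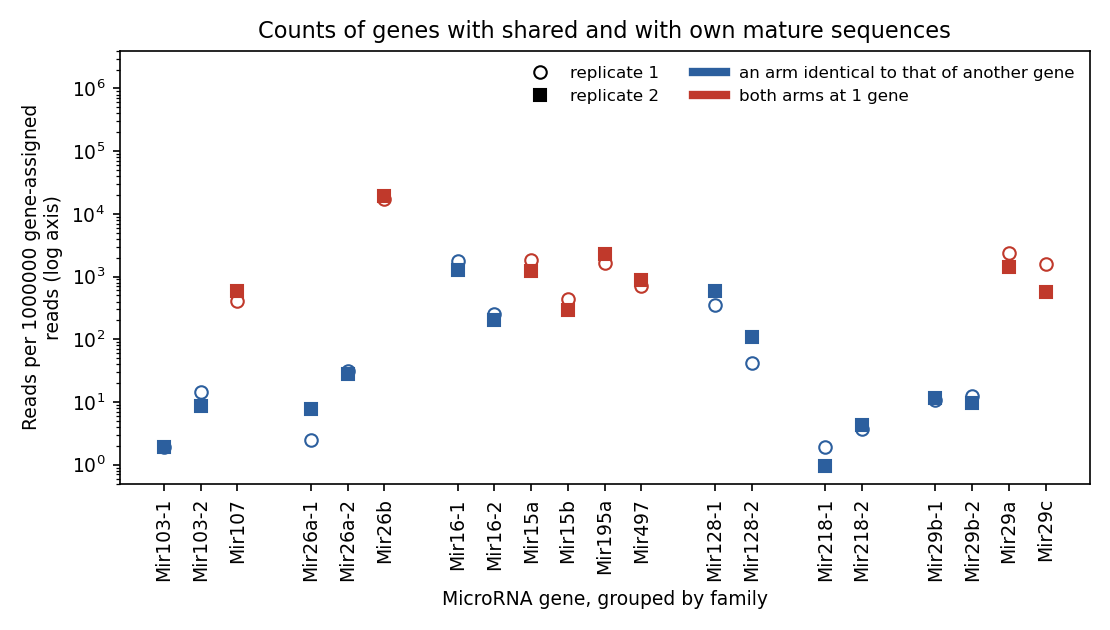
Reads per 1000000 gene-assigned reads (log axis) in replicate 1 (open circles) and replicate 2 (filled squares) for microRNA families in which some genes share a mature arm with another gene (blue) and others do not (red). Mir103-1 and Mir103-2 lay at 14.4 or below and Mir107 at 403 or above, whereas Mir16-1 and Mir15a lay close together.

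Of the 7 genes repeated in introns of related hosts, namely those of the miR-26, miR-128 and miR-218 families, 4 were detected. Of these, Mir26b (1.17-fold, 1.15 to 1.18), Mir128-1 (1.73-fold, 1.56 to 1.92) and Mir128-2 (2.75-fold, 2.08 to 3.66) were called higher in replicate 2 and none lower, beside 33.3% and 29.7% of all genes, with a median log2 ratio of 0.51. The call on Mir26b ended with scaling by all reads of the tables (fold 0.984), and in edgeR's exact test the adjusted p of the 4 genes was 0.71 to 1. Of 9 microRNAs known from insulin action and lipid metabolism, the field in which miR-103 and miR-107 are best known, 7 were detected, with 1 called higher, 2 lower and a median of -0.20, where 63.0% of all genes were called. Mir27b was 1.18-fold higher (1.14 to 1.21; 0.992 with scaling by all reads of the tables, not called), and Mir29a and Mir29c were called lower with folds of 0.634 (0.604 to 0.666) and 0.367 (0.342 to 0.393). Mir33, in an intron of the sterol regulator gene Srebf2, had 13 and 5 reads and was not tested, and Mir802 had 0 reads, which allows up to 1.88 and 1.44 CPM.

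The genes most like each member were found by Euclidean distance of log2(CPM + 1) over the 2 libraries, which share their depth and scaling with the member. Nearest to Mir107 were Mir328 (614 and 1273 reads, distance 0.08), Mir214 (675 and 1316, 0.11) and Mir154 (683 and 1088, 0.21). Nearest to Mir103-2 were Mir29b-2 (20 and 20 reads, distance 0.23), Mir450-1 (21 and 15, 0.26) and Mir6240 (18 and 18, 0.33). Mir103-1 lay under the detection minimum, so that its nearest detected genes, Mir672, Mir1955 and Mir1291, were at distances of 1.73 to 2.14.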

How the data were processed

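Raw read counts per microRNA gene were deposited for 2 libraries on the mm10 build with annotation M21, per the deposited read-me text. Which aligner and counting program made them is not given in the sources used here. The tables have no header. Judged by the summary rows and values, its 3 columns are counts without strand, on the gene's strand (used here) and on the opposite strand. Library sizes and tests leave out the summary rows. All 2202 identifiers matched M21. A genome sequence was not used here, so the windows planned for a genome search were looked up in M21 transcripts and RefSeq hairpins, leaving out each gene and its host. The exact binomial test at TMM-scaled sizes (edgeR 4.0.16, R 4.3.3) was two-sided, with Benjamini-Hochberg adjustment over 273 genes at 0.05. It was tried on simulated counts with no spread between libraries beyond counting error, which is what the test assumes. That trial therefore does not cover the spread of these libraries. A quasi-likelihood fit needs more than 1 library a side. DESeq2 1.42.0 size factors were an alternative. Named genes were the 3 members, detected list members, up to 2 genes per marker list and the 3 nearest genes per member. List members with few or no reads are named beyond that rule, as are Mir208b and Mir499, which were picked for their differences between the libraries. The members and lists were chosen with earlier results of these data known. Intervals and limits (3 counts for a count of 0) cover counting error only, and PCR copies cannot be recognised. Python 3.11.15, scipy 1.17.1, Biopython 1.88 and matplotlib 3.10.9 were used.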

Additional observations from a re-analysis of the deposited data

Results flagged for a closer look

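Both libraries held signal outside the gene counts, far above a limit of 3 counts. The row of reads with several matches held 7195252 in replicate 1 and 10919725 in replicate 2, which is 4.51 and 5.25 times the gene-assigned reads. How many of them come from miR-103-3p or shortened miR-107-3p was not analysed here. Reads placed once but in no microRNA gene came to 142257 and 232773.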

How the results depend on the processing

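Mir107 was higher in replicate 2 and passed the binomial test under all 7 other scalings, filters and columns, with folds of 1.31 to 1.54, and Mir103-2 stayed unpassed with folds of 0.530 to 0.626 in the 6 in which it could be tested. With edgeR's exact test the fold of Mir107 was 1.55 but it did not pass (adjusted p = 1), and 4 genes were called in place of 172, 3 higher and 1 lower. Scaling by all reads of the tables moved the median of all genes by -0.25 (log2) and turned 91 higher and 81 lower into 58 higher and 119 lower. With multiply matched reads in the total, the mean shares fell to 0.00841% for Mir107, 0.000200% for Mir103-2 and 3.2e-05% for Mir103-1. With counts that disregard strand they were 0.0714%, 0.00167% and 0.000274%, with unchanged reads over smaller totals, and the ranks were 73 for Mir107 and 232 for Mir103-2. Without the most abundant gene Mir103-1 held 0.000226%. Leaving out a replicate gave shares of 0.0403% to 0.0595% for Mir107, 0.000866% to 0.00144% for Mir103-2 and 0.000188% to 0.000192% for Mir103-1. With windows of 16 to 30 bases, 84.4% of those of the Mir103-2 hairpin were found nowhere else, in place of 80.3%. Of all values recomputed under these alternatives, 88 stayed within the margin set for their kind, 1 call was lost and 14 values moved further. Tested members had to keep their direction and side of the threshold, and shares and ranks to move by less than the SD. Leaving out a replicate always moves a mean of both libraries by less than their SD, so those shares and splits could not fail. The splits without regard to strand were also fixed, since no member reads lay on the opposite strand. The count of values that stayed is therefore no measure of robustness. Folds of Mir103-1 and shares of windows had to stay within a counting interval. Counts of called genes and nearest genes had a wider margin, so that 78 genes called higher with scaling by gene-assigned reads, in place of 91, still fell within it. Hairpins with flanks of 5 bases were not run. No paired analysis was possible because the design has 1 group. The few reads of Mir103-1 and Mir103-2 limit what these libraries can show of them.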
